A study of Mus musculus with 12 samples.

Results

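The ubiquitin-conjugating enzymes (E2s) with a Ube2 symbol were described in polysome-bound RNA of mouse oocytes. They are the genes whose symbol is Ube2 followed by a letter, 35 of the 23235 genes in the expression table. The symbol alone chose them, and 1, Ube2cbp, is named as a binding protein of Ube2c and is known as an E3-type protein, not as an E2. The oocytes came from C57BL/6 mice at postnatal day 21, either wild type (WT) or Cnot6l-/- (KO). The Cnot6l product is one of the deadenylases of CCR4-NOT, the complex that shortens poly(A) tails. GV (germinal vesicle, prophase-arrested) oocytes were labelled as taken 48 h after PMSG, the gonadotropin that primes follicle growth. MI (first meiotic metaphase) oocytes were labelled as cultured for 8 h and MII (second metaphase) oocytes for 16 h. Each of the 6 groups had 2 libraries, 12 in all, and the title of the series names the destruction of maternal transcripts during meiosis as its question. No label says what part of Cnot6l was deleted, whether 2 libraries of a group came from separate pools or animals, or how many oocytes were pooled, so p-values measure the spread between libraries, which may be technical.

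Ubiquitin is first activated by an E1 enzyme, then carried as a thioester on the catalytic cysteine of an E2, and passed to a substrate with the help of an E3 ligase. The E2 contributes to which linkage a chain has, and a few E2s carry NEDD8 or ISG15 in place of ubiquitin. In oocytes the anaphase-promoting complex (APC/C), an E3, works with particular E2s to destroy cyclin B and securin, which lets chromosomes separate at the first meiotic division. Growing oocytes store many mRNAs, and translation and decay of these maternal messages are remodelled as meiosis resumes.

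Of 35 E2 genes, 33 passed the filter of a mean of at least 1 FPKM over the 12 libraries and were tested among 11667 genes. FPKM count fragments per kilobase and are scaled by library. Ube2ql1 was listed at 0 in all 12 libraries and Ube2q1 at 0 to 2.51 FPKM. Differences below are on the log2(FPKM + 1) scale with their SE, and understate the change of low genes. A gene was called when its Benjamini-Hochberg adjusted p from limma, over all tested genes, was under 0.05. Higher or lower refers to the group named first, and an interaction is the KO change minus the WT change.

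Library totals of the deposited FPKM ranged from 884142 (WT MII) to 1663871 (KO MI), and 9064 to 13319 genes were above 0. With them, the median difference of all tested genes was 1.03 for KO vs WT at MI and 0.81 at MII, so the E2 differences at these stages are read against those medians. Median scaling divided each library by the median of its ratios to the gene means. The ratios came from 5734 genes with a mean of at least 10 FPKM and above 0 in all 12 libraries. Genes at 0 in any library thus had no part in the factor. This scaling changed the all-gene median difference to 0.21 at MI and 0.45 at MII. In bulk libraries, less RNA per oocyte and fewer oocytes cannot be told apart, and without total RNA neither can transcript amount and loading on polysomes. Cnot6l itself read 38.7 and 16.1 FPKM (WT) and 6.28 and 21.6 (KO) at GV, 68.5 and 47.9 (WT) and 23.5 and 16.5 (KO) at MI, and 65.2 and 49.4 (WT) and 16.4 and 16.01 (KO) at MII, so the genotypes overlapped at GV and not at MI or MII. All 10 oocyte markers were above 0 in every library. Summed markers of cumulus and granulosa cells were 277 to 317 FPKM in WT GV, 145 to 195 in KO GV, 116 to 167 at MI in both genotypes, 50.5 to 64.7 (WT) and 76.8 to 121 (KO) at MII, with 2 to 10 of 12 markers above 0, and their part in the E2 values was not tested. The inhibin subunit Inha was listed at 0 in both WT MII libraries and was 201 and 239 FPKM in WT GV. Other markers of that list did not follow Inha. Cyp19a1 was 23.5 and 36.5 FPKM in WT GV, 47.6 and 32.8 in WT MII and 63.85 and 98.35 in KO MII. Ptx3 was listed at 0 in both WT GV libraries and was 17.1 and 15.3 FPKM in WT MII.

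Motifs in the 3' ends are shown because CCR4-NOT acts on poly(A) tails, and the cytoplasmic polyadenylation element is known to set poly(A) tail length of maternal messages. TTTTAT and TTTTAAT were searched on the transcript strand in the last 100 bases of the annotated 3' end (GENCODE mouse release 1, build mm9). They were found in 5 of 34 E2 genes with such a window (14.7%), against 17.6% of 17969 protein-coding genes. Of the matches, 4 follow, 5′ to 3′, with the motif in capitals and all in 3' UTRs.
Ube2t, chr1:136870658-136870687, plus strand: aaggatagtttgTTTTATttatcttgtaca
Ube2g2, chr10:77108627-77108656, plus strand: aaaacaaagtatTTTTATtcatttgtattt
Ube2q2, chr9:55055234-55055263, plus strand: ttttttttttgaTTTTATttttcattgcag
Ube2w, chr1:16559874-16559903, minus strand: gtgattaatgtaTTTTATaaattacctttt
The matches are a description of these windows. The poly(A) signals AATAAA or ATTAAA stood in the last 40 bases of 26 of the 34 E2 genes (76.5%), against 74.4% of protein-coding genes.

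A few E2 messages made up most of the polysome-bound E2 pool. Over the 12 libraries the median E2 gene had a mean of 40.3 FPKM, against 15.0 for all tested genes. Ube2t had the highest mean (2273 FPKM), followed by Ube2d3 (1705), Ube2s (565) and Ube2c (387), and these 4 genes held 59.04% to 81.4% of the summed E2 FPKM in a library. Ube2t is the E2 of the Fanconi anaemia pathway, Ube2d3 a broadly acting partner of many E3s, and Ube2s and Ube2c the E2s of the APC/C. At the low end, Ube2dnl was above 0 in 4 of 12 libraries, and Ube2r2, Ube2l6 and Ube2dnl had means of 2.08 to 3.04 FPKM. The heatmap shows 34 of the genes by role.

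**Figure D1:**
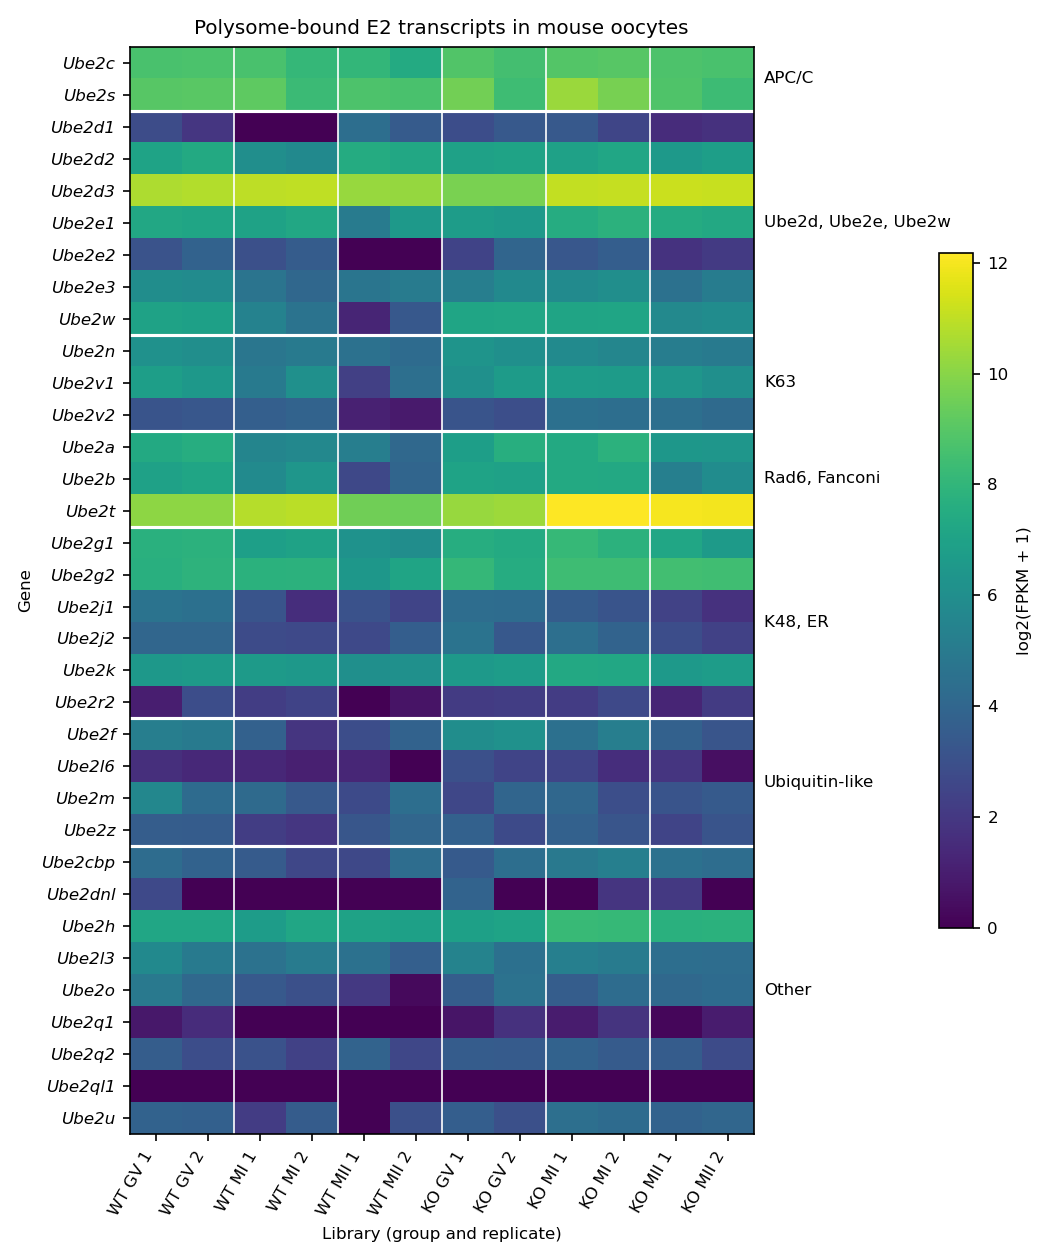
Heatmap of log2(FPKM + 1) for 34 E2 genes (rows, ordered by role) in the 12 libraries (columns, by group and replicate). Ube2t and Ube2d3 are the highest rows in every library, and Ube2ql1 is at 0 throughout.

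The E2 pool (mean ± SD, n = 2) summed to 5921 ± 63.98 FPKM (WT) and 5097 ± 257 (KO) at GV, 5948 ± 13.2 (WT) and 10981 ± 205 (KO) at MI, and 3669 ± 65.7 (WT) and 8869 ± 301 (KO) at MII. In these summed FPKM, both KO libraries stood below both WT libraries at GV and above them at MI and MII. Without Ube2t the pool was 2945 ± 55.04 in WT MII and 4809.7 ± 163 in KO MII. As a share of all FPKM in a library, E2 genes held 0.469% and 0.466% (WT) and 0.494% and 0.459% (KO) at GV, 0.573% and 0.558% (WT) and 0.680% and 0.651% (KO) at MI, and 0.417% and 0.410% (WT) and 0.750% and 0.713% (KO) at MII. By this share, which includes Ube2t, the genotypes overlapped at GV, and KO was above WT at MI and MII. At MI the pool without Ube2t was 4171 and 3994 FPKM (WT) and 6582 and 6224 (KO). The library totals there were 1040466 and 1063273 FPKM (WT) and 1635234 and 1663871 (KO). By share without Ube2t, the genotypes overlapped at MI, and KO stayed above WT at MII. Ube2t was 18.7% to 45.8% of the E2 pool, lowest in WT GV and highest in KO MII. These sums were not tested.

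**Figure D2:**
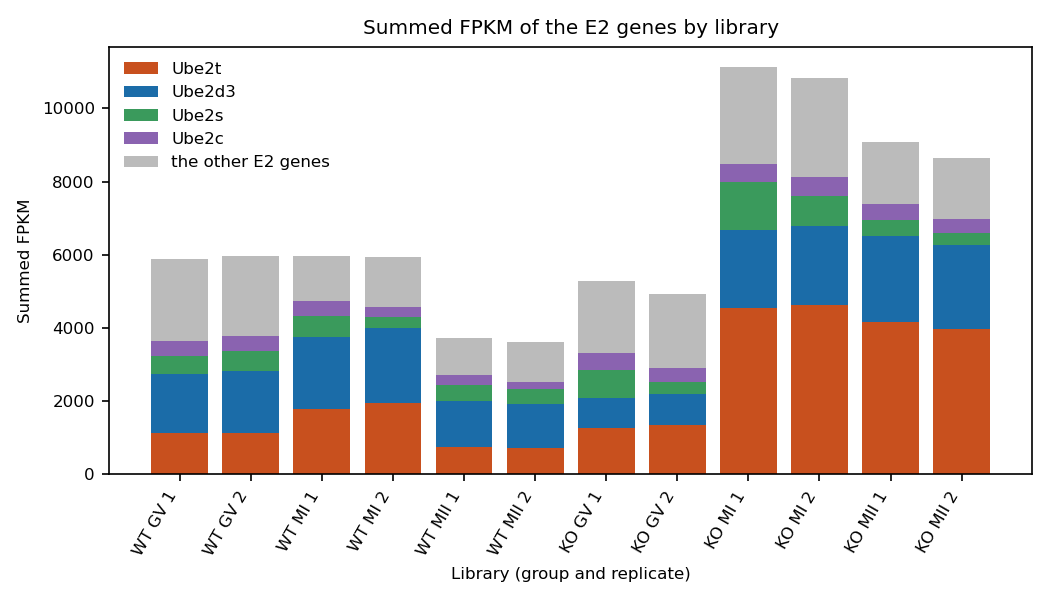
Stacked bars of summed FPKM of the E2 genes in each library (x axis, group and replicate), with the most abundant genes in colour and the other E2 genes in grey. The bars of KO MI (11126 and 10835) and KO MII (9082 and 8657) are taller than those of the other groups, and the Ube2t segment is 45.8% of both KO MII bars.

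KO and WT oocytes were compared at each stage to see which E2 messages on polysomes differ when Cnot6l is missing. At GV, 1 of 33 E2 genes was lower and none was higher (in limma, before adjustment, 1 higher and 1 lower had p under 0.05), beside a background of 1.40% of all tested genes lower and 0.163% higher. At MI, 15 were higher and none lower (before adjustment, 19 and 0 had p under 0.05), beside 27.9% and 0.463% of all genes. At MII, 14 were higher and 3 lower, beside 25.4% and 3.20%. For the 3 stages in order, the E2 median differences were -0.19, 1.05 and 0.82, close to the all-gene medians of -0.06, 1.03 and 0.81. In every one of these calls the libraries of KO and WT did not overlap. The share of such genes among all called genes was not taken, so this cannot be read as a trait particular to E2 genes. The genes higher at both MI and MII were Ube2a, Ube2b, Ube2g1, Ube2h, Ube2t and Ube2w.

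Part of these counts rested on scaling or on 1 library. Where leaving out 1 library changed an E2 count given here or below, calls over all tested genes moved the same way. Such changes are therefore not particular to E2 genes. With median scaling, 2 E2 genes were higher and 1 lower at MI (background 2.14% and 2.47%), and 10 were higher and 3 lower at MII (background 16.6% and 8.04%). The calls lost at MII were those of Ube2c, Ube2e1, Ube2g1 and Ube2h. The higher genes at MI were then Ube2t (0.33, adjusted p = 0.0211) and Ube2d1, and the lower one was Ube2d3 (-0.87, adjusted p = 5.47e-05). The count of 15 fell to 7 without WT MI replicate 2, 5 without KO MI replicate 1 and 6 without KO MI replicate 2. The calls at MI for Ube2d2, Ube2h and Ube2t were kept in all 12 leave-outs. At MII the higher count fell to 9 without KO MII replicate 1, and the 9 calls of Ube2a, Ube2b, Ube2d3, Ube2g2, Ube2o, Ube2t, Ube2v1, Ube2v2 and Ube2w were kept in all 12. The 3 lower calls at MII became 1 without WT MII replicate 1 or KO MII replicate 2 and 0 without KO MII replicate 1. A fit of the 2 groups alone, without the other libraries' spread, called 5 E2 genes higher and 0 lower at MII (in limma, before adjustment, 13 higher and 3 lower had p under 0.05) and 0 at GV (2 higher and 2 lower). Over all tested genes that fit called 1537 at MII and 0 at GV, so its GV count says nothing about E2 genes.

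**Figure D3:**
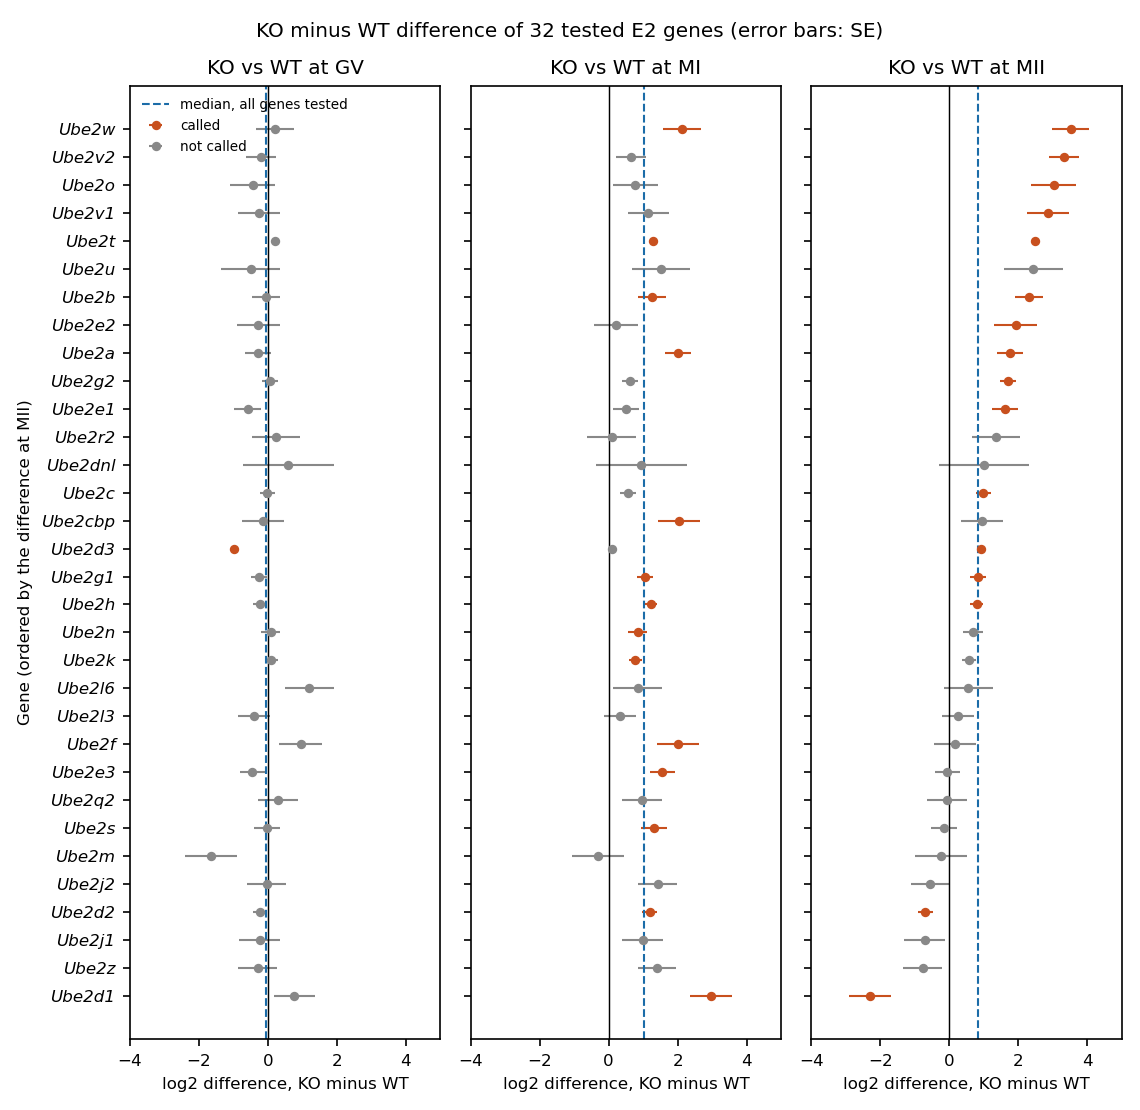
KO minus WT log2 difference (x axis, log2(FPKM + 1) scale, error bars SE) of 32 tested E2 genes (y axis) at GV, MI and MII, with called genes in colour and a dashed line at the median of all tested genes. At MI 31 of 32 points lie above 0, around the dashed line at 1.03, and at MII they spread from -2.31 for Ube2d1 to 3.51 for Ube2w.

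The E2s of DNA repair and histone ubiquitination, Ube2t, Ube2a and Ube2b, were all higher in KO at both MI and MII. Ube2t, which monoubiquitinates FANCD2 and FANCI with the E3 FANCL, lies on chromosome 1 (chr1:136859154-136870714, plus strand, mm9). Ube2t read 1112 and 1113 FPKM (WT) and 1248 and 1344 (KO) at GV, 1786 and 1944 (WT) and 4544 and 4611 (KO) at MI, and 732 and 717 (WT) and 4157 and 3962 (KO) at MII. The genotypes did not overlap at any stage, and KO MI and KO MII were above all 4 WT libraries of MI and MII. Ube2t was higher in KO by 1.30 ± 0.068, adjusted p = 2.78e-06 at MI (0.27 relative to all genes) and by 2.48 ± 0.068, adjusted p = 4.07e-09 at MII (1.67 relative to all genes). At GV the difference was 0.22 ± 0.068, adjusted p = 0.218, and Ube2t was not called. Both calls were kept under every alternative tried, including median scaling (1.91 at MII).

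Ube2a and Ube2b are the mouse RAD6 proteins, partners of RAD18 at stalled replication forks and of RNF20 and RNF40 at histone H2B. Ube2a read 167 and 188 FPKM (WT) and 110.4 and 194 (KO) at GV, 45.2 and 50.1 (WT) and 169 and 225 (KO) at MI, and 36.4 and 16.04 (WT) and 85.05 and 83.8 (KO) at MII. The WT MI and WT MII libraries were the 4 lowest. Ube2a was higher in KO by 2.01 ± 0.38, adjusted p = 0.00428 at MI and by 1.76 ± 0.38, adjusted p = 0.00601 at MII, and the MI call was lost without KO MI replicate 2 (adjusted p = 0.0507). Its MI difference was 0.98 relative to all genes. Ube2b read 125 and 143 FPKM (WT) and 133 and 123 (KO) at GV, 56.3 and 81.97 (WT) and 166 and 162 (KO) at MI, and 5.21 and 14.5 (WT) and 37.5 and 59.3 (KO) at MII. WT MII stood below all other groups, with both libraries under 15 FPKM. Ube2b was higher in KO by 1.26 ± 0.41, adjusted p = 0.0434 at MI, a call lost without 9 of the 12 libraries (adjusted p up to 0.192, without WT MI replicate 1), and by 2.30 ± 0.41, adjusted p = 0.00215 at MII (1.48 relative to all genes). With median scaling neither gene was called at MI (adjusted p = 0.171 and 0.783), and both were still higher at MII.

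The Ube2d and Ube2e enzymes, which work with many RING and HECT E3s, and Ube2w, which ubiquitinates protein N termini, held calls in both directions. Of 7 tested members, 1 was lower at GV, 4 were higher at MI, and 4 were higher and 2 lower at MII. Among all tested genes, 27.9% were higher at MI, and 25.4% were higher and 3.20% lower at MII. The members' median differences at the 3 stages were -0.28, 1.19 and 0.91, beside -0.06, 1.03 and 0.81 for all genes. With median scaling, 1 member was higher and 1 lower at MI, beside 2.14% and 2.47% of all tested genes. At MII 3 members were then higher and 2 lower, beside 16.6% and 8.04%. Ube2d3 lies on chromosome 3 (chr3:135101723-135130142, plus strand). Ube2d3 read 1614 and 1716 FPKM (WT) and 830.4 and 846 (KO) at GV, 1969.5 and 2045 (WT) and 2137 and 2173 (KO) at MI, and 1269 and 1209.9 (WT) and 2354 and 2292 (KO) at MII. KO GV was the lowest group, KO MII the highest, and the MI values of both genotypes lay within 1969.5 to 2173 FPKM. Ube2d3 was lower in KO at GV (-0.99 ± 0.065, adjusted p = 2.54e-05) and higher at MII (0.91 ± 0.065, adjusted p = 4.91e-06). At MI the difference of 0.10 ± 0.065, adjusted p = 0.25 was not called, and it lay 0.93 below the all-gene median. Median scaling made that MI difference a lower call (-0.87), kept the GV call (-0.89) and left 0.33 at MII (adjusted p = 0.00502). The GV call was lost only in the fit of the 2 groups alone (adjusted p = 0.0959), which called no gene at GV.

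Ube2d1 read 6.07 and 2.75 FPKM (WT) and 6.39 and 9.48 (KO) at GV, 0 and 0 (WT) and 9.38 and 4.80 (KO) at MI, and 19.98 and 10.3 (WT) and 1.89 and 2.33 (KO) at MII. In WT, Ube2d1 was listed at 0 in both MI libraries and both MII values lay above both GV values, while KO MII lay below KO GV. No fold change is given against a group at 0, although Ube2d1 was among the genes called higher at MI (adjusted p = 0.00648). That call was lost without KO MI replicate 1 (adjusted p = 0.0659). At MII, Ube2d1 was lower in KO (-2.31 ± 0.60, adjusted p = 0.0163), a call lost without WT MII replicate 1 (adjusted p = 0.0911), KO MII replicate 1 (adjusted p = 0.0807) or KO MII replicate 2 (adjusted p = 0.0614). Ube2d2 is a close relative. Ube2d2 read 131 and 168 FPKM (WT) and 122 and 131 (KO) at GV, 64.00 and 54.7 (WT) and 126 and 147 (KO) at MI, and 179 and 155 (WT) and 95.05 and 110.4 (KO) at MII. WT MI was the lowest group and WT MII among the highest, whereas the KO groups lay between 95.1 and 147 FPKM. Ube2d2 was higher in KO at MI (1.19 ± 0.21, adjusted p = 0.0035) and lower at MII (-0.70 ± 0.21, adjusted p = 0.0328), with the second call lost without WT MII replicate 1 (adjusted p = 0.104), KO MII replicate 1 (adjusted p = 0.164) or KO MII replicate 2 (adjusted p = 0.0709). Relative to all genes, the Ube2d2 difference at MI was 0.16. With median scaling it was not called at MI (0.23, adjusted p = 0.637) and stayed lower at MII (-1.27, adjusted p = 0.00193). The Ube2d2 transcript has 2 other near-identical alignments in the genome, the longest 1743 bases, so its reads may be split or shared.

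Ube2w read 129.9 and 120.5 FPKM (WT) and 142 and 148 (KO) at GV, 40.8 and 23.8 (WT) and 138 and 142 (KO) at MI, and 1.39 and 9.10 (WT) and 51.5 and 58.8 (KO) at MII. WT MII held the 2 lowest values and every KO library was above both. Ube2w was higher in KO at MII by 3.51 ± 0.54, adjusted p = 0.000912 (2.70 relative to all genes), which was the largest called E2 difference of the 3 KO vs WT comparisons. At MI it was higher by 2.13 ± 0.54, adjusted p = 0.0175, a call lost without WT MI replicate 2 (adjusted p = 0.0951), KO MI replicate 1 (adjusted p = 0.0852) or KO MI replicate 2 (adjusted p = 0.0952). Ube2e2 read 7.63 and 13.3 FPKM (WT) and 4.40 and 14.6 (KO) at GV, 6.84 and 10.5 (WT) and 8.80 and 11.3 (KO) at MI, and 0 and 0 (WT) and 2.39 and 3.25 (KO) at MII. Ube2e2 was listed at 0 in both WT MII libraries, so no fold change is given, although it was among the genes called higher at MII (adjusted p = 0.0423). That call was lost without 8 of the 12 libraries (adjusted p up to 0.165, without KO MII replicate 2). Ube2e1 was 32.7 and 92.2 FPKM in WT MII and 179 and 161 in KO MII, higher in KO by 1.61 ± 0.38, adjusted p = 0.00989, a call lost without KO MII replicate 1 (adjusted p = 0.0614) and with median scaling (adjusted p = 0.0705). Without WT MII replicate 1 the difference was 0.87. Its exons overlap Nkiras1 on the opposite strand by 718 bases. Ube2e3 was 24.6 and 15.5 in WT MI and 56.05 and 62.7 in KO MI, higher by 1.55 ± 0.36, adjusted p = 0.012, a call lost without WT MI replicate 2 (adjusted p = 0.0623), KO MI replicate 1 (adjusted p = 0.0606) or KO MI replicate 2 (adjusted p = 0.0861). Another alignment of 459 bases matches its transcript.

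The APC/C partners Ube2c, which starts ubiquitin chains, and Ube2s, which extends them, were abundant throughout. Ube2c read 412 and 428 FPKM (WT) and 464 and 375 (KO) at GV, 414 and 276 (WT) and 477 and 520.0 (KO) at MI, and 261 and 175 (WT) and 439.6 and 407 (KO) at MII. At MII both KO libraries were above both WT libraries, and Ube2c was higher in KO by 0.98 ± 0.22, adjusted p = 0.00855, a call lost without KO MII replicate 1 (adjusted p = 0.057). At MI the difference was 0.56 ± 0.22, adjusted p = 0.0849. Ube2s read 507 and 532 FPKM (WT) and 762 and 337 (KO) at GV, 566 and 314 (WT) and 1317 and 829 (KO) at MI, and 438 and 410.3 (WT) and 445 and 328 (KO) at MII. The KO MI libraries were the 2 highest, but the 2 replicates of KO GV, KO MI and WT MI differed widely. Ube2s was higher in KO at MI by 1.31 ± 0.38, adjusted p = 0.0285, a call lost without WT MI replicate 2 (adjusted p = 0.175), KO MI replicate 1 (adjusted p = 0.183) or KO MI replicate 2 (adjusted p = 0.0557), and at MII the difference was -0.15 ± 0.38, adjusted p = 0.812. With median scaling neither gene was called in any KO vs WT comparison. Another alignment of 988 bases matches the Ube2s transcript, so its values may include reads of a copy.

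The builders of K63-linked chains are Ube2n, which carries the ubiquitin, and the catalytically inactive partners Ube2v1 and Ube2v2. Ube2v2 read 7.91 and 8.88 FPKM (WT) and 7.98 and 6.49 (KO) at GV, 12.04 and 13.4 (WT) and 21.3 and 19.9 (KO) at MI, and 1.16 and 0.870 (WT) and 21.03 and 17.6 (KO) at MII. WT MII was at or near 1 FPKM, below all other libraries, and KO MI and KO MII were the highest. Ube2v2 was higher in KO at MII by 3.33 ± 0.44, adjusted p = 0.000306 (2.52 relative to all genes), a call kept under every alternative. Its transcript has 2 other near-identical alignments in the genome, the longest 1661 bases, so reads may be split or shared. Ube2v1 read 112 and 90.02 FPKM (WT) and 68.4 and 103 (KO) at GV, 30.01 and 69.1 (WT) and 104 and 101 (KO) at MI, and 3.97 and 20.5 (WT) and 83.7 and 65.5 (KO) at MII. The 2 WT MII libraries were lowest, though they differed widely from each other. Ube2v1 was higher in KO at MII by 2.86 ± 0.60, adjusted p = 0.00562, kept in every leave-out and with median scaling (2.36, adjusted p = 0.0208). The difference was 1.802 without WT MII replicate 1. Its transcript has 2 other near-identical alignments, the longest 924 bases, and that of Ube2n has 1, of 1195 bases. Exons of Ube2v1 overlap Tmem189 on the same strand by 1398 bases, so reads of the 2 genes may be mixed. Ube2n was 26.7 and 30.1 FPKM in WT MI and 55.97 and 47.2 in KO MI, higher in KO by 0.84 ± 0.28, adjusted p = 0.0477, with 21.99 and 18.2 in WT MII and 34.7 and 30.99 in KO MII (0.68 ± 0.28, adjusted p = 0.0949). Ube2n's MI call was lost without 10 of the 12 libraries (adjusted p up to 0.214, without KO MI replicate 1), and its sign turned with median scaling (-0.11).

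The E2s of K48 chains and endoplasmic reticulum quality control include Ube2g2, with Ube2g1, Ube2j1, Ube2j2, Ube2k and Ube2r2. Of these 6, none was called at GV by limma (0 at an unadjusted p under 0.05), 2 were higher at MI, and 2 at MII, beside 27.9% and 25.4% of all tested genes. With median scaling 0 were called higher at MI by limma (before adjustment, 0 had p under 0.05) and 1 at MII. The all-gene shares called higher were then 2.14% and 16.6%. Ube2g2 read 205 and 230.2 FPKM (WT) and 275 and 188 (KO) at GV, 217 and 222 (WT) and 338 and 334 (KO) at MI, and 85.96 and 137 (WT) and 359 and 347 (KO) at MII. WT MII held the 2 lowest values, and KO MII the 2 highest. Ube2g2 was higher in KO at MII by 1.69 ± 0.24, adjusted p = 0.000475 and at MI the difference was 0.61 ± 0.24, adjusted p = 0.0751. Its exons overlap Sumo3 on the same strand by 84 bases. Ube2g1 was 115 and 126 FPKM in WT MI, 279 and 225 in KO MI, 73.3 and 61.9 in WT MII and 148 and 97.04 in KO MII. Ube2g1 was higher in KO at MI by 1.05 ± 0.23, adjusted p = 0.00898 and at MII by 0.82 ± 0.23, adjusted p = 0.0223, and the calls were lost without KO MI replicate 1 (adjusted p = 0.0804) and without WT MII replicate 2 (adjusted p = 0.0777) or KO MII replicate 1 (adjusted p = 0.173). At MII the difference was 0.52 without KO MII replicate 1. With median scaling Ube2g1 was not called at MI (0.083, adjusted p = 0.905) or MII (0.25, adjusted p = 0.462). Ube2k was 97.1 and 88.2 in WT MI and 159.8 and 157 in KO MI (0.77 ± 0.19, adjusted p = 0.0167), a call lost without WT MI replicate 2 (adjusted p = 0.062), KO MI replicate 1 (adjusted p = 0.0913) or KO MI replicate 2 (adjusted p = 0.0902), with the sign turned by median scaling (-0.19). Ube2j1, Ube2j2 and Ube2r2 were not called in any KO vs WT comparison.

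Among E2s for ubiquitin-like modifiers, Ube2f and Ube2m carry NEDD8. Ube2f was 12.9 and 2.72 FPKM in WT MI and 21.5 and 36.2 in KO MI, higher in KO by 2.01 ± 0.61, adjusted p = 0.0347, a call lost without 7 of the 12 libraries (adjusted p up to 0.195, without KO MI replicate 2). The difference was 1.05 without WT MI replicate 2. Ube2m was 5.58 and 20.2 FPKM in WT MII and 8.05 and 10.1 in KO MII and was not called in any KO vs WT comparison. Ube2l6, the ISG15 E2, and Ube2z, which works with the E1 UBA6, were not called in any KO vs WT comparison either.

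Of the remaining E2s, Ube2h, partner of the CTLH ligase complex, was higher in KO at both meiotic stages. Ube2h read 149 and 148 FPKM (WT) and 119 and 132 (KO) at GV, 106 and 145 (WT) and 297 and 285 (KO) at MI, and 128 and 119.8 (WT) and 213 and 216 (KO) at MII. No KO MI or KO MII library overlapped a WT library. Ube2h was higher in KO by 1.22 ± 0.19, adjusted p = 0.00155 at MI and by 0.79 ± 0.19, adjusted p = 0.0101 at MII, where the call was lost without KO MII replicate 1 (adjusted p = 0.0518) or KO MII replicate 2 (adjusted p = 0.0575). With median scaling neither was called (adjusted p = 0.508 and 0.433). The Ube2h transcript has 2 other near-identical alignments in the genome, the longest 2120 bases. Ube2o, a large enzyme with E3 activity of its own, was 3.05 and 0.240 FPKM in WT MII and 16.1 and 18.2 in KO MII, higher in KO by 3.02 ± 0.65, adjusted p = 0.00628. Ube2cbp, the Ube2c-binding protein, was 10.4 and 5.04 FPKM in WT MI and 29.6 and 36.6 in KO MI, higher in KO by 2.03 ± 0.61, adjusted p = 0.0323, a call lost without WT MI replicate 2 (adjusted p = 0.149), KO MI replicate 1 (adjusted p = 0.111) or KO MI replicate 2 (adjusted p = 0.156). Ube2l3, an E2 of HECT and RBR ligases, was 23.3 and 32.6 FPKM in WT MI and 37.4 and 32.6 in KO MI and was not called at any stage. Its transcript has 4 other near-identical alignments in the genome, the longest 699 bases, and an exon overlap of 1670 bases with Ydjc on the opposite strand. Ube2q2, Ube2u and Ube2dnl were not called either.

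**Figure D4:**
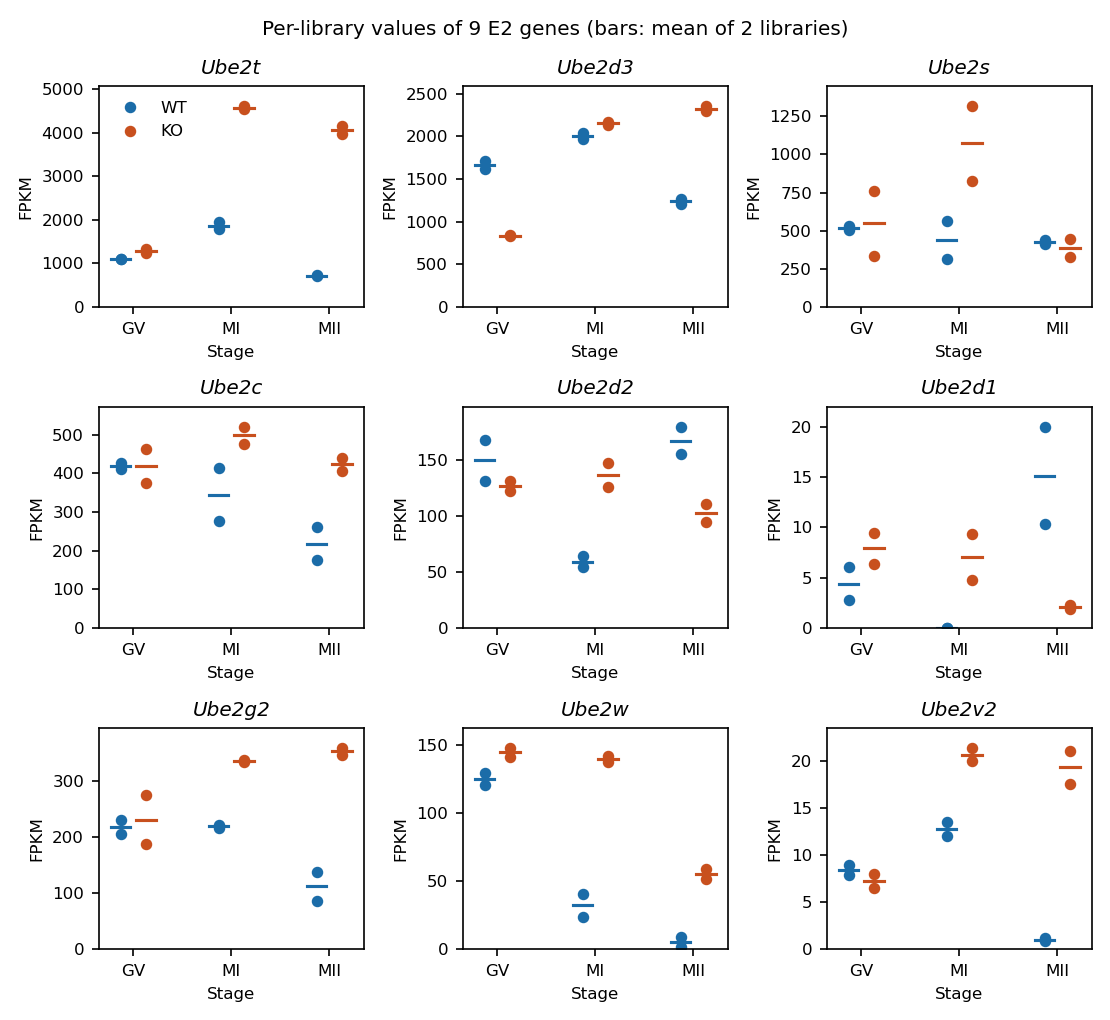
FPKM of 9 E2 genes (1 panel each) by stage, with points for the single libraries of WT and KO and bars for the mean of 2 libraries. Ube2t climbs in KO from GV to MI and stays high at MII, Ube2d3 starts lower in KO GV, and Ube2w is lowest in WT MII (1.39 and 9.10).

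Stage changes within each genotype were compared to see how E2 messages on polysomes shift as meiosis proceeds. From GV to MI in WT, 2 E2 genes rose and 10 fell, beside 3.06% and 21.7% of all genes, and the E2 median difference was -0.94 against -0.87 for all genes. Ube2t (0.74 ± 0.068, adjusted p = 5.58e-05) and Ube2d3 (0.27 ± 0.065, adjusted p = 0.0141) rose, the latter losing its call without WT GV replicate 1 (adjusted p = 0.101) or WT MI replicate 2 (adjusted p = 0.0657). Among those that fell, Ube2a (-1.87 ± 0.38, adjusted p = 0.00562) and Ube2d2 (-1.31 ± 0.21, adjusted p = 0.00188) kept their calls in all 12 leave-outs. Another 7 that fell (Ube2d1, Ube2e3, Ube2f, Ube2g1, Ube2j1, Ube2n and Ube2w) each lost their calls without 2 to 4 of the WT GV and WT MI libraries (adjusted p up to 0.135). The count that fell was 3 without WT GV replicate 1, and 4 without WT GV replicate 2 or WT MI replicate 2. With median scaling 3 rose (Ube2t, Ube2d3 and Ube2k) and only Ube2d1 fell, beside 7.15% and 7.24% of all genes. In KO, 3 E2 genes rose and none fell (in limma, before adjustment, 9 higher and 0 lower had p under 0.05), beside 8.89% and 1.35% of all genes. These were Ube2t (1.82 ± 0.068, adjusted p = 3.58e-08), Ube2d3 (1.36 ± 0.065, adjusted p = 2.75e-07) and Ube2h (1.21 ± 0.19, adjusted p = 0.00183), and all 3 were kept in every leave-out. Without either WT MII library, 6 were called.

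From MI to MII in WT, 3 E2 genes rose and 10 fell, beside 5.68% and 16.4% of all genes. Their median was -0.56 against -0.27. Ube2d1 and Ube2d2 (1.48 ± 0.21, adjusted p = 0.000739) were among those that rose. Ube2t (-1.36 ± 0.068, adjusted p = 5.18e-07), Ube2d3 (-0.70 ± 0.065, adjusted p = 4.11e-05), Ube2b (-2.81 ± 0.41, adjusted p = 0.000785), Ube2v2 (-2.77 ± 0.44, adjusted p = 0.00129) and Ube2w (-2.71 ± 0.54, adjusted p = 0.00517) fell and were kept in every leave-out, with Ube2w at -1.67 without WT MII replicate 1. Ube2e2 was listed at 0 in WT MII. Ube2e1 fell too, with its call lost without WT MI replicate 1 (adjusted p = 0.0703), WT MI replicate 2 (adjusted p = 0.127) or WT MII replicate 1 (adjusted p = 0.077). Ube2g1 fell and lost its call without WT MI replicate 1 (adjusted p = 0.0644), WT MI replicate 2 (adjusted p = 0.103) or WT MII replicate 2 (adjusted p = 0.0845). Ube2g2 fell and lost its call without WT MI replicate 1 (adjusted p = 0.0502), WT MI replicate 2 (adjusted p = 0.0559) or WT MII replicate 1 (adjusted p = 0.0531). Ube2v1 fell and lost its call without WT MI replicate 2 (adjusted p = 0.168) or WT MII replicate 1 (adjusted p = 0.119). A fit of the 2 groups alone called none of the 33 (in limma, before adjustment, 3 higher and 9 lower had p under 0.05), and none of all tested genes. In KO, no E2 gene rose and 4 fell (in limma, before adjustment, 0 higher and 13 lower had p under 0.05), beside 0.163% and 7.18% of all genes. Among them were Ube2b (-1.78 ± 0.41, adjusted p = 0.0277), Ube2g1 (-1.06 ± 0.23, adjusted p = 0.0208) and Ube2s (-1.45 ± 0.38, adjusted p = 0.0462). Ube2b lost its call without 8 of the 12 libraries (adjusted p up to 0.176, without KO MII replicate 1), Ube2g1 without KO MI replicate 1 (adjusted p = 0.18), KO MI replicate 2 (adjusted p = 0.081) or KO MII replicate 2 (adjusted p = 0.149) and Ube2s without 6 of the 12 libraries (adjusted p up to 0.305, without KO MI replicate 1). The count was 7 without either WT MII library, 2 without either WT GV library or KO MII replicate 1, and 1 without either KO MI library or KO MII replicate 2. With median scaling, these 4 were not called and Ube2d3 (0.69) and Ube2t (0.41) rose instead, beside 0.831% of all genes higher and 0.677% lower.

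The genotypes' stage changes were then compared directly by the interaction. From GV to MI, 8 E2 genes changed more upward in KO than in WT and none less (in limma, before adjustment, 14 higher and 0 lower had p under 0.05), beside 14.4% and 0.266% of all genes. The 8 became 5 without WT GV replicate 1 and 4 without WT GV replicate 2 or KO MI replicate 2. Median scaling called none of them (limma; background 0.643% higher and 0.909% lower, all-gene median 0.22, E2 genes at an unadjusted p under 0.05: 1 higher and 0 lower). From MI to MII, 3 changed more upward in KO and 3 more downward, beside 2.81% and 3.71%. Upward were Ube2t (1.19 ± 0.096, adjusted p = 8.05e-05), Ube2d3 (0.80 ± 0.093, adjusted p = 0.000733) and Ube2v2 (2.68 ± 0.62, adjusted p = 0.0284). Downward, among others, were Ube2d2 (-1.89 ± 0.30, adjusted p = 0.00495) and Ube2d1. Ube2t, Ube2d3, Ube2d2 and Ube2d1 were called under all 18 alternatives to the MI to MII interaction, and Ube2v2 was lost without WT MI replicate 2 (adjusted p = 0.0546), KO MI replicate 1 (adjusted p = 0.111), KO MI replicate 2 (adjusted p = 0.121), KO MII replicate 1 (adjusted p = 0.103) or KO MII replicate 2 (adjusted p = 0.0788). Without WT MII replicate 2, 8 changed more upward. With median scaling 4 changed upward, with Ube2g2 added (1.47), and 3 downward, beside 4.76% and 1.65%.

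**Figure D5:**
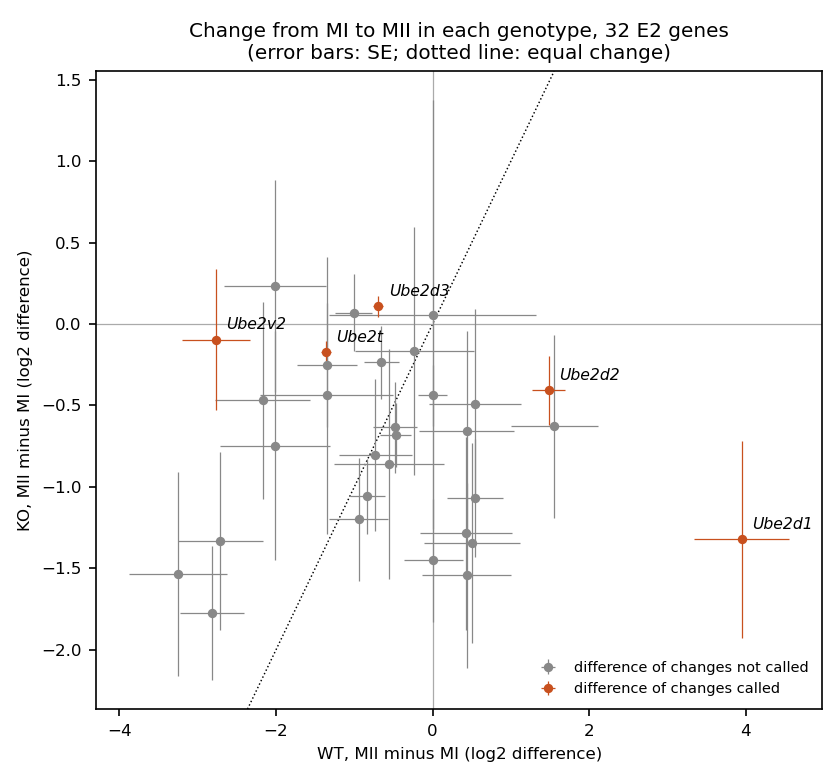
Change from MI to MII in log2(FPKM + 1) in WT (x axis) against KO (y axis) for 32 tested E2 genes, with SE bars and a dotted line of equal change. Ube2t, Ube2d3 and Ube2v2 lie above the line and Ube2d1 and Ube2d2 below it.

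The rest of the ubiquitin pathway was set beside the E2 genes. All-gene shares were 27.9% higher and 0.463% lower at MI, and 25.4% and 3.20% at MII. Of 8 tested E1 enzymes, 3 were higher and 0 lower in KO at MI and 1 was higher and 0 lower at MII. Of 11 modifiers, 8 were higher and 0 lower at MI and 4 were higher and 1 lower at MII, with Ubb, a polyubiquitin gene, at 849 and 760.3 FPKM in WT MII and 2695 and 2633 in KO MII (1.73 ± 0.059, adjusted p = 2.04e-08). Of 8 E2s whose symbols do not match Ube2, 1 was higher and 0 lower at MI and 2 were higher and 1 lower at MII. Cdc34, the E2 of SCF ligases, was 547 and 485 FPKM in WT MII and 227 and 349.9 in KO MII, lower in KO (-0.87 ± 0.19, adjusted p = 0.00604). The difference was -0.56 without KO MII replicate 1, and the call was lost in the fit of the 2 groups alone (adjusted p = 0.137). Of 16 APC/C genes, 4 were higher and 0 lower at MI and 5 were higher and 2 lower at MII. Anapc2, its cullin subunit, was 1.52 and 4.77 in WT MII and 28.96 and 44.4 in KO MII (3.27 ± 0.41, adjusted p = 0.000248), a call lost in the fit of the 2 groups alone (adjusted p = 0.0689). Cdc20, its activator, rose from GV to MI in both genotypes (1.19 ± 0.15, adjusted p = 0.000412 in WT and 1.99 ± 0.15, adjusted p = 1e-05 in KO).

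Of 40 other E3 partners, 10 were higher and 0 lower at MI and 11 were higher and 2 lower at MII. The all-gene shares were 27.9% higher and 0.463% lower at MI and 25.4% and 3.20% at MII. Rnf40, which works with Ube2a and Ube2b, was 0.760 and 0 FPKM in WT MII and 40.4 and 28.8 in KO MII (4.73 ± 0.40, adjusted p = 1.58e-05). Both its WT MII values were below all other libraries, as were those of Ube2b. The same held for Ube2a, Ube2g2, Ube2v1, Ube2v2, Ube2w, Anapc2 and Ubb, among others, so it is not particular to Rnf40 and Ube2b. At GV each list had at most 1 call, all lower in KO. The median differences at MI of these 5 lists were 0.64 to 0.93, below the all-gene 1.03 and the E2 median of 1.05. The balance of these counts turned with scaling, and the all-gene shares moved too. After median scaling those shares were 2.14% higher and 2.47% lower at MI, and 16.6% and 8.04% at MII. With median scaling, no member of the 5 lists was called higher at MI by limma (before adjustment, 1 of them, an E1, had p under 0.05). The lower calls were 1 for E1 enzymes, 2 for modifiers, 1 for the E2s with other symbols, 1 for the APC/C and 2 for the other E3s. At MII the rescaled counts of higher and lower genes were 0 and 1 for E1 enzymes, 3 and 2 for modifiers, 1 and 1 for the E2s with other symbols, 2 and 5 for the APC/C and 3 and 3 for the other E3s.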

How the data were processed

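The deposited table holds FPKM values for 23235 genes in 12 libraries, made by the authors from polysome-bound RNA. The tools named in the submitters' processing notes are Cufflinks 2.2.1, Bowtie2 2.1.0, TopHat2 2.0.11 and CASAVA 1.8, with build mm9 and without roles or order. The sources used here give neither annotation, filters nor read counts, so depth in reads is unknown and precision is judged from replicates (Pearson's r of log2 values across genes within a group, 0.865 to 0.949). Groups come from the labels.

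Values were analysed as log2(FPKM + 1), for 11667 genes with a mean of at least 1 FPKM, with limma 3.58.1 in R 4.3.3: 6 group means, residual df 6, empirical Bayes with an abundance trend (prior df 4.27), 9 comparisons, Benjamini-Hochberg adjustment over all tested genes. E2 genes and lists were chosen with earlier results of these data known. Named genes are E2 genes that were called with libraries that do not overlap and a mean of at least 5 FPKM in the higher group, plus fixed members of each role, except that 1 item among them is not reported here. From the other lists, up to 3 called genes a list with the largest differences were eligible. Gene positions and 3' ends came from GENCODE mouse release 1, which placed 35 of 35 E2 genes at the deposited locus. Copies were sought with blastn 2.17.0 (at least 98% identity over 200 bases). Alternatives were a pseudocount of 0.1, no filter, TPM (FPKM rescaled to an equal total), median scaling, a replicate block, a fit of the 2 groups alone and leaving out each library.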

Additional observations from a re-analysis of the deposited data

Results flagged for a closer look

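The change from GV to MI differed between KO and WT for 8 E2 genes by limma's interaction test, each by a larger value in KO. Among these were Ube2a 2.29 (adjusted p = 0.019), Ube2d2 1.42 (adjusted p = 0.0133), Ube2d3 1.09 (adjusted p = 7.55e-05), Ube2e3 2.00 (adjusted p = 0.0282), Ube2g1 1.31 (adjusted p = 0.0245), Ube2h 1.46 (adjusted p = 0.00592) and Ube2t 1.08 (adjusted p = 0.000105). The all-gene median of this interaction was 1.13, with 14.4% of all tested genes called higher and 0.266% lower. Median scaling called none of the 8. The calls of Ube2d3, Ube2h and Ube2t were kept in all 12 leave-outs. Ube2a was lost without 5 of the 12 libraries (adjusted p up to 0.0907, without KO MI replicate 2), Ube2d2 without WT GV replicate 2 (adjusted p = 0.0589) or KO MI replicate 2 (adjusted p = 0.0685), Ube2e3 without 6 of the 12 libraries (adjusted p up to 0.108, without KO MI replicate 2) and Ube2g1 without 7 of the 12 libraries (adjusted p up to 0.102, without KO MI replicate 1).

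The change from MI to MII differed for 6 E2 genes, beside 2.81% of all tested genes called higher and 3.71% called lower. Ube2t 1.19 (adjusted p = 8.05e-05), Ube2d3 0.80 (adjusted p = 0.000733) and Ube2v2 2.68 (adjusted p = 0.0284) had the larger value in KO. Among those with the smaller value in KO were Ube2d1 -5.27 (adjusted p = 0.00534) and Ube2d2 -1.89 (adjusted p = 0.00495). The Ube2d1 value depends on the pseudocount, since both WT MI libraries were listed at 0, and it is no bound.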

How the results depend on the processing

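With TPM, the E2 calls were 1 higher for KO vs WT at GV, 2 higher and 1 lower for KO vs WT at MI, 9 higher for KO vs WT at MII, 1 higher and 0 lower for KO MII vs MI, 0 higher for interaction MI vs GV. Over all tested genes TPM called 124, 647, 2803, 178 and 194 in that order. The main fit called 182, 3311, 3340, 857 and 1711 for the same comparisons. With an abundance trend removed from each library (chosen after seeing the data), the E2 calls were 1 higher for KO vs WT at GV, 1 higher and 1 lower for KO vs WT at MI, 7 higher and 5 lower for KO vs WT at MII, 0 lower for WT MI vs GV, 6 lower for WT MII vs MI, 2 higher and 0 lower for KO MII vs MI, 0 higher for interaction MI vs GV. All-gene calls in that order were 110, 392, 2474, 1548, 2648, 175 and 181. The main fit called 2892 genes for WT MI vs GV and 2574 for WT MII vs MI. In the fit of the 2 groups alone, the E2 calls were 0 lower for KO vs WT at GV, 5 higher and 0 lower for KO vs WT at MII, 1 higher for WT MI vs GV, 0 higher and 0 lower for WT MII vs MI. Over all genes that fit called 0, 1537, 2129 and 0 in that order. With median scaling, the E2 calls were 2 higher and 1 lower for KO vs WT at MI, 1 lower for WT MI vs GV, 2 higher and 0 lower for KO MII vs MI, 0 higher for interaction MI vs GV. All-gene calls were then 538, 1679, 176 and 181 in that order. Leaving out 1 library gave counts of 3 to 6 for KO MI vs GV, higher, 1 to 7 for KO MII vs MI, lower, 5 to 20 for KO vs WT at MI, higher, 9 to 14 for KO vs WT at MII, higher, 0 to 3 for KO vs WT at MII, lower, 1 to 2 for WT MI vs GV, higher, 3 to 12 for WT MI vs GV, lower, 4 to 12 for interaction MI vs GV, higher, 2 to 8 for interaction MII vs MI, higher. The sign reversed for Ube2k, KO vs WT at MI (-0.19 median scaling, -0.19 abundance trend removed), Ube2n, KO vs WT at MI (-0.11 median scaling, -0.20 abundance trend removed), Anapc4, KO vs WT at MI (-0.18 median scaling, -0.16 abundance trend removed), Uba2, KO vs WT at MI (-0.0040 abundance trend removed), Tsg101, KO vs WT at MI (-0.0076 median scaling), Rps27a, KO vs WT at MI (-0.018 median scaling), Cdc20, interaction MI vs GV (-0.089 TPM, -0.26 median scaling, -0.20 abundance trend removed). The counts over all tested genes shifted with the library left out as well, so the leave-out ranges are not particular to E2 genes. The cause of these shifts was not tested. Libraries with the same replicate number shared little deviation (correlations of deviations -0.029 to 0.055). This cannot show whether they were collected as pairs, which no label states. A replicate block called 14 rather than 15 E2 genes at MI, without Ube2n, and 15 rather than 13 for WT MII vs MI. FPKM without read counts set no limit for zeros, and 2 libraries a group limit what can be called.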
